A study of Mus musculus with 12 samples.

Results

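The 34 genes described here encode the transporters and enzymes of glycolysis, lactate metabolism and the pentose phosphate pathway, together with regulators and targets of the hypoxia response. They were picked by gene symbol from the 24046 symbols of the count tables, and all 34 were found there. Of these, 33 passed a filter on low counts and were tested among 12242 genes, and Ldhb was the one that did not. By role they comprised 2 glucose transporters, 10 genes of upper glycolysis, 5 of lower glycolysis, 4 of lactate metabolism, 6 of the pentose phosphate pathway and 7 of the hypoxia response.

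Messenger RNA had been sequenced from follicular (FO) B cells sorted from mouse spleen, where they form the recirculating majority of B cells, in 4 groups of 3 libraries. The groups were Jmjd1c KO cells after 2 h with anti-IgM, Jmjd1c KO cells at 0 h, WT cells after 2 h with anti-IgM and WT cells at 0 h. Anti-IgM triggers the B cell receptor as antigen would, and Jmjd1c encodes a nuclear protein of the JmjC family of histone demethylases. Library names pair the 2 h and 0 h libraries of 6 mice, 3 KO and 3 WT, and each pair carries a batch number from 1 to 3. The labels name the genotype as Jmjd1c KO and give no allele, Cre driver, strain or age. All 2 h libraries received anti-IgM, so the stimulus and the time in culture cannot be told apart. In bulk samples of this kind, fewer cells of a type and less RNA per cell cannot be told apart either.

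Glycolysis splits glucose into pyruvate in the cytosol. Glucose enters through transporters of the Slc2a family, is trapped by hexokinase, is committed by phosphofructokinase and is cleaved by aldolase, and the lower enzymes then harvest ATP and NADH. Lactate dehydrogenase turns pyruvate into lactate, which leaves the cell through Slc16a transporters. The pentose phosphate pathway branches off after hexokinase and gives NADPH and the ribose of nucleotides. Hypoxia-inducible factor (HIF) switches on many of these genes when oxygen is low, and the Egln prolyl hydroxylases mark its alpha subunit for destruction when oxygen is present. Lymphocytes that receive an antigen signal are known to take up more glucose and to release more lactate as they prepare to grow and divide.

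Total counts ranged from 5666013 to 14153396 per library. As a floor, 3 counts, an approximate upper limit for an observed count of 0, stood for 0.183 to 1.02 CPM (counts scaled to library size with TMM factors). The reads carry no molecular identifiers, so such floors cover counting error only. Jmjd1c itself averaged 207 CPM in KO cells and 296 CPM in WT cells at 2 h, and 221 CPM in KO cells and 325 CPM in WT cells at 0 h. Its ranges did not overlap between the genotypes at either time, but neither difference was called (edgeR adjusted p = 0.887 at 2 h and 0.9999 at 0 h). The summed level of 10 B cell markers was 3225 to 5879.9 CPM in KO at 2 h, 6061 to 6757 CPM in KO at 0 h, 3737 to 5368 CPM in WT at 2 h and 5204 to 6339 CPM in WT at 0 h, and none of the 10 was at 0 in any library. These ranges did not overlap between times in KO and did in WT. The 9 T cell markers summed to 124 to 198 CPM in KO at 2 h, 77.2 to 101 CPM in KO at 0 h, 139 to 209.7 CPM in WT at 2 h and 86.9 to 143 CPM in WT at 0 h, so they did not overlap between times in KO and did in WT. Lck carried those sums, with 90.7 to 152 CPM in KO at 2 h, 41.0 to 54.7 CPM in KO at 0 h, 108 to 159 CPM in WT at 2 h and 37.9 to 61.3 CPM in WT at 0 h, and the other 8 T cell markers lay at 14.8 CPM or under in every library. Cd3e, the defining T cell gene, had 3.05 to 4.11 CPM in KO at 2 h, against 6.36 to 8.04 CPM in KO at 0 h. In WT Cd3e overlapped, with 4.39 to 10.7 CPM at 2 h, against 6.19 to 12.3 CPM at 0 h. Bcl11b was also lower in KO, with 2.71 to 4.64 CPM at 2 h, against 5.68 to 6.79 CPM at 0 h. The other T cell markers apart from Lck, such as Cd3d and Thy1, overlapped between times in KO. The 6 plasma cell markers summed to 1094 to 2515 CPM in KO at 2 h, 567 to 663 CPM in KO at 0 h, 1859 to 2256 CPM in WT at 2 h and 518 to 576 CPM in WT at 0 h. Irf4, which activated B cells also express, carried the rise of that sum, with 850.3 to 2378 CPM in KO at 2 h, 294 to 450.1 CPM in KO at 0 h, 1686 to 2090 CPM in WT at 2 h and 329.7 to 415 CPM in WT at 0 h. Sdc1, a defining plasma cell gene, had 29.7 to 45.1 CPM in KO at 2 h, against 40.2 to 56.3 CPM in KO at 0 h, and Xbp1 had 56.8 to 58.6 CPM in KO at 2 h, against 50.8 to 59.1 CPM in KO at 0 h. In WT Sdc1 had 51.0 to 81.5 CPM at 2 h, against 63.0 to 81.2 CPM at 0 h. Xbp1 had 46.3 to 63.9 CPM in WT at 2 h, against 51.4 to 68.0 CPM in WT at 0 h. Prdm1, of the same list, was higher in WT, with 22.4 to 35.1 CPM at 2 h, against 11.9 to 17.0 CPM at 0 h. In KO its values overlapped, with 15.6 to 28.4 CPM at 2 h, against 15.8 to 20.0 CPM at 0 h. The part of these lists in the changes between times was not tested. KO 2 h replicate 1 stood apart. In that library Rn45s, the precursor of ribosomal RNA, took 52.3% of the counts, against 0.418% to 24.8% in the other 11. It also held 529.7 CPM of Mki67, a gene of dividing cells, and 444 CPM of Mpo, a gene of granulocyte precursors. WT 2 h replicate 1, of the same batch, had the 24.8% of Rn45s, with 138 CPM of Mki67 and 115 CPM of Mpo. Batch 2 libraries of both times had 12.9% to 15.5% of Rn45s. Their Mki67 was 67.2 to 97.1 CPM and their Mpo 49.9 to 71.9 CPM. The rest had 0.418% to 1.09% of Rn45s. In the other 11 libraries the 10 genes of dividing cells summed to 44.9 to 265 CPM, against 972 CPM in KO 2 h replicate 1. The 9 genes of monocytes, macrophages and neutrophils summed to 21.7 to 147 CPM there, against 557 CPM in KO 2 h replicate 1. Mpo made up most of the 557 CPM, and Lyz2, Ly6c2 and Cd14, of the same list, were not highest in that library. Counts of members called are therefore given with and without that library.

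Before stimulation the cells already carried most of the pathway, and their levels per length differed widely. Levels are compared between genes only as CPM per kb of merged exon, with lengths from the GENCODE M21 annotation. That length counts every annotated exon of a gene, used in these cells or not, so the order between genes also depends on the annotation. Aldoa, the main aldolase, stood first with 104 ± 23.7 CPM per kb in KO cells and 106 ± 8.17 CPM per kb in WT cells at 0 h (SD, n = 3 each, as for the other levels). Ldha, the muscle-type subunit of lactate dehydrogenase, followed with 48.8 ± 5.26 CPM per kb in KO and 49.4 ± 7.09 in WT. The values of Ldha overlapped those of Pkm, pyruvate kinase, at 44.8 ± 1.79 CPM per kb in KO and 45.2 ± 2.57 in WT, and those of Taldo1, transaldolase, at 46.0 ± 6.86 CPM per kb in KO and 44.9 ± 6.72 in WT. The order of those 3 genes is therefore not resolved, while Aldoa lay above all of them in every 0 h library. Hif1a, the oxygen-regulated HIF subunit, came next at 35.5 ± 1.17 CPM per kb in KO and 36.3 ± 1.94 in WT. Slc2a1, the GLUT1 glucose transporter, had 16.4 ± 2.25 CPM per kb in KO and 17.1 ± 1.47 in WT, which overlapped Eno1, G6pdx, Rpia and Ddit4.

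At the low end stood several minor paralogs. Hk2, the inducible hexokinase, had only 2.17 ± 0.732 CPM per kb in KO and 2.29 ± 1.26 in WT at 0 h, below Hk1, the constitutive form, at 6.62 ± 0.304 in KO and 7.46 ± 0.667 in WT. Pfkm, the muscle phosphofructokinase, had 0.989 ± 0.572 CPM per kb in KO and 0.757 ± 0.415 in WT, against 12.5 ± 0.267 in KO and 12.5 ± 1.16 in WT for Pfkl, the liver form. Aldoc, Slc16a3 and Egln3 lay in the same low range as Pfkm. Ldhb, the heart-type subunit of lactate dehydrogenase, had the lowest mean, with 0.272 ± 0.120 CPM per kb in KO and 0.264 ± 0.192 in WT, from 2 to 9 counts per library. Its libraries overlapped those of Slc16a3, at 0.389 ± 0.121 in KO and 0.481 ± 0.224 in WT, so their order is not resolved. The libraries of Egln3, Aldoc and Pfkm overlapped one another, so the order of these 3 is not resolved.

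**Figure D1:**
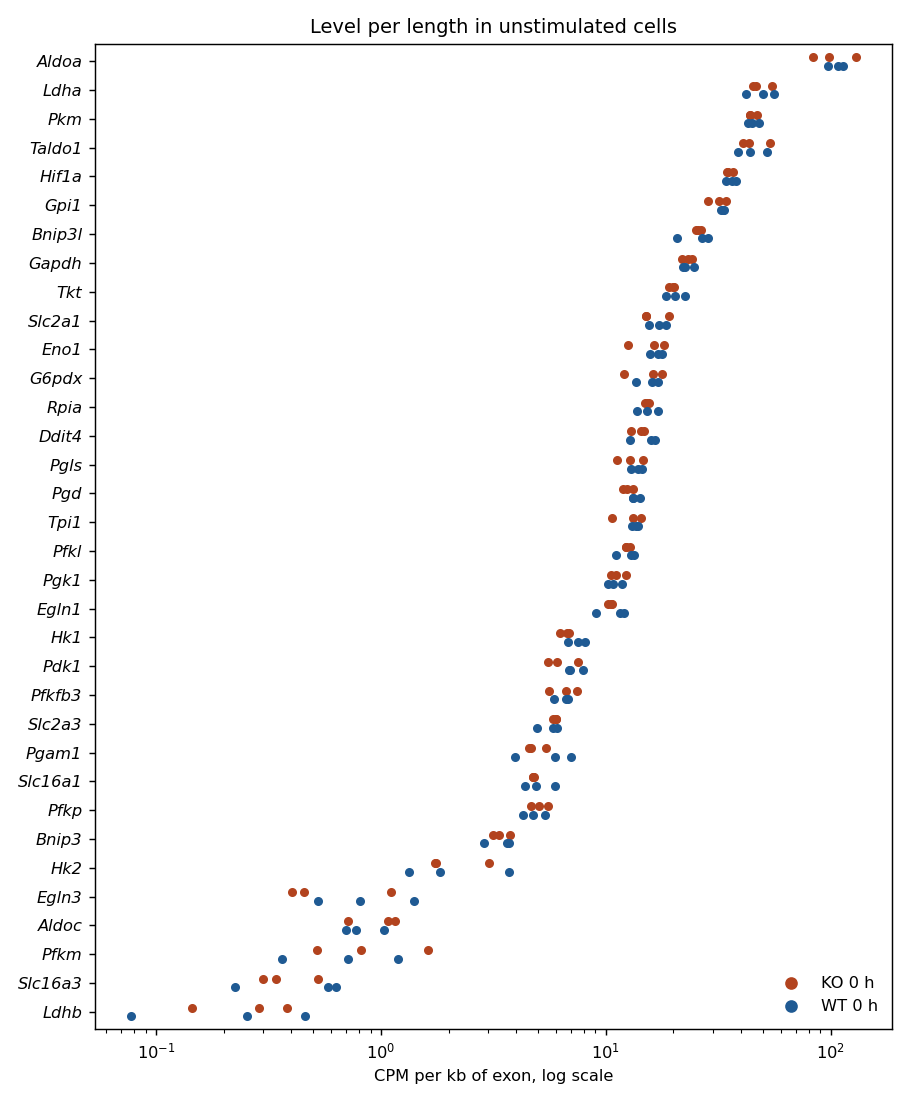
Level of the 34 genes per length at 0 h, as CPM per kb of merged exon on a log axis, with 1 point per library (KO above WT in each row). Aldoa is highest in both genotypes, Ldha, Pkm and Taldo1 overlap, and Egln3, Aldoc, Pfkm, Slc16a3 and Ldhb form the low end.

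After 2 h of anti-IgM Hk2, Ldha and Slc16a1 showed the largest called rises, other enzymes of both pathways rose less, and none of the 7 hypoxia genes among the members rose. In KO cells 12 of the 33 tested members rose and 2 fell at an adjusted p under 0.05 (edgeR, Benjamini-Hochberg), where 27.1% of all tested genes were called (14.1% higher and 13.0% lower). In WT cells 8 rose and 3 fell, where 19.8% of all tested genes were called (10.7% higher and 9.06% lower). The share of members called higher was 36.4% in KO and 24.2% in WT, above those backgrounds, and the share called lower was 6.06% in KO and 9.09% in WT, below the background in KO and about equal to it in WT. The median log2 fold change was 0.26 over the members in KO and 0.041 in WT, against 0.043 and 0.0091 over all tested genes. Of 16 members called in either genotype, 9 were called in both: Hk2, Pfkp, Aldoa, Pgk1, Pgam1, Ldha, Slc16a1, Tkt and Bnip3l. The 2 h libraries all lay above the 0 h libraries for 12 members in KO and 10 in WT (17.9% and 21.3% of all genes), and below them for 3 in KO and 6 in WT (19.6% and 22.7% of all genes). In either direction that made 37.5% of all genes in KO and 43.9% in WT. Compared within each mouse, 12 members were higher at 2 h in all 6 animals, where 18.7% of tested genes were, and 5 were lower in all 6, where 22.9% were. Without KO 2 h replicate 1, 9 members rose and 3 fell in KO, where 31.5% of all genes were called (17.5% higher and 14.1% lower), and 9 rose and 5 fell in WT, where 29.6% were called (15.5% higher and 14.1% lower), and the median change of the members in KO was 0.012. The summed level of the glycolytic enzymes with Ldha and Ldhb was 2062 to 2230.0 CPM in KO at 2 h, against 1261 to 1468 CPM in KO at 0 h. In WT it was 1763 to 2280.3 CPM at 2 h, against 1353 to 1440.3 CPM at 0 h, so the libraries of the 2 times did not overlap in either genotype.

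**Figure D2:**
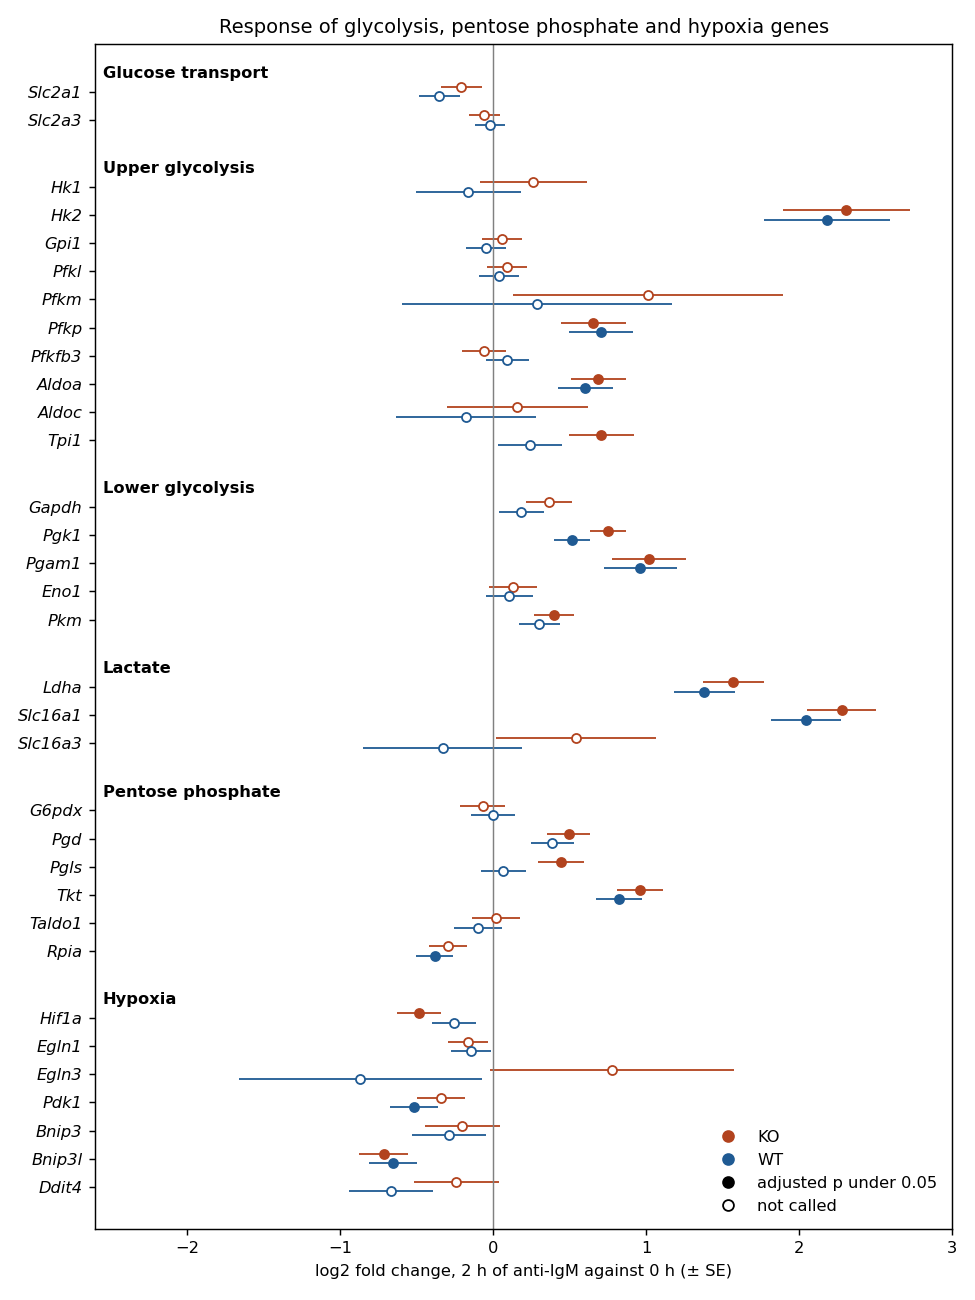
Log2 fold change of each tested member at 2 h of anti-IgM against 0 h, with its SE, by role (KO above WT in each row; filled points have an edgeR adjusted p under 0.05). Hk2, Slc16a1 and Ldha lie furthest to the right in both genotypes, and the hypoxia genes lie mostly left of 0, with Egln3 in KO to the right of it.

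The promoters of the 3 genes with the largest rises and of Hif1a are shown because 2 families of transcription factor known to act on glycolytic genes, HIF and Myc, bind short motifs that can be read in them. Each window runs from 250 bases before to 50 after the RefSeq start (GRCm38.p6, the assembly behind mm10), is written 5′ to 3′ along the gene, and carries in capitals every match, on either strand, to CACGTG (the E-box of Myc), to ACGTG or to GCGTG (the HIF core). A CACGTG holds ACGTG on both strands, so the motifs overlap. The windows are chr6:82774405-82774704 on the minus strand for Hk2, chr3:104638414-104638713 on the plus strand for Slc16a1, chr7:46845554-46845853 on the plus strand for Ldha (the first of its 2 windows) and chr12:73907617-73907916 on the plus strand for Hif1a.
Hk2: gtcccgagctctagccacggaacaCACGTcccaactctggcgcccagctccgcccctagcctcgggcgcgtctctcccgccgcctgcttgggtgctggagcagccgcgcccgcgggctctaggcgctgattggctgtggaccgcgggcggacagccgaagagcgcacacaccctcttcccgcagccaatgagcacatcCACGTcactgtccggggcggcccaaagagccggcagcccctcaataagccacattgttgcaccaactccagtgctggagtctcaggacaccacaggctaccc
Slc16a1: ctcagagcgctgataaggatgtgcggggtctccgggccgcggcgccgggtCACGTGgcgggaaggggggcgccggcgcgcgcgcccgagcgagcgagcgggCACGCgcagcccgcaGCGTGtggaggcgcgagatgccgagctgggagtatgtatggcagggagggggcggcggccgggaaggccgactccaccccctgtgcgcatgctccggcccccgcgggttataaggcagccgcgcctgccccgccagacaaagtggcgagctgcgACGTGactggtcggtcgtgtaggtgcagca
Ldha: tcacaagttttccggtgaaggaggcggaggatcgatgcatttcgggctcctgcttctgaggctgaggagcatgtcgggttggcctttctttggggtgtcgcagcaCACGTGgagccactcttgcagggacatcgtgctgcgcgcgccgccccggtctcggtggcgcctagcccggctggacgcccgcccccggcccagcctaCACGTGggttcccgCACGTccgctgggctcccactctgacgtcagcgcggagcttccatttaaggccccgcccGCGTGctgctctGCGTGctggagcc
Hif1a: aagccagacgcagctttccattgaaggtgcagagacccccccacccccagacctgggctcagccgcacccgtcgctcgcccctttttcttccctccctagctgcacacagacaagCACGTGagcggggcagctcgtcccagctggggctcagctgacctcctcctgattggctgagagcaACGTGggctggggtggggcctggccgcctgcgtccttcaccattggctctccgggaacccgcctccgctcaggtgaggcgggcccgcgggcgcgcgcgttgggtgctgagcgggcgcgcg
The Ldha window held CACGTG at 2 places, starting 145 and 48 bases before the start site, and a further ACGTG and 2 GCGTG matches. The Slc16a1 and Hif1a windows held 1 CACGTG each, and the Hk2 window held no CACGTG and 2 ACGTG matches. Over all 32851 windows of the RefSeq table, 7.15% held CACGTG, 19.6% held ACGTG and 32.4% held GCGTG. Of the 46 windows found for 32 of the 34 members, 6 held CACGTG, 23 held ACGTG and 28 held GCGTG. Some windows of the same gene overlap, as for Eno1, Aldoa and Pfkm, so 1 motif can count more than once. By gene, 6, 20 and 23 of the 32 members held these motifs. Besides Ldha, Slc16a1 and Hif1a, CACGTG was held by Pfkfb3, Bnip3 and Pfkm, which were not called between times in either genotype. Such matches describe the sequence and show no binding.

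Neither glucose transporter gene was called in KO or in WT. Slc2a1 is the main basal glucose transporter of many cells. Slc2a1 had 57.5, 48.1 and 44.7 CPM in KO at 2 h, against 53.0, 66.7 and 53.0 CPM in KO at 0 h, and 46.5, 51.0 and 43.4 CPM in WT at 2 h, against 60.5, 64.7 and 54.4 CPM in WT at 0 h. All 3 WT libraries at 2 h lay below those at 0 h, and the KO libraries of the 2 times overlapped. The log2 fold change of Slc2a1 was -0.21 ± 0.13 (SE) in KO and -0.35 ± 0.13 in WT, called in neither (edgeR adjusted p = 0.261 and 0.0885). The WT call was reached without KO 2 h replicate 1 (adjusted p = 0.0399) and with the batch as a block (0.0405). Slc2a3, the GLUT3 transporter, had 41.5 ± 1.63 CPM in KO at 2 h and 43.2 ± 0.698 CPM in KO at 0 h (SD, n = 3 each), and 40.3 ± 1.44 CPM in WT at 2 h and 40.8 ± 4.29 CPM in WT at 0 h, and it was not called in either genotype.

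Among the 10 genes of upper glycolysis, 4 rose in KO (Hk2, Pfkp, Aldoa and Tpi1) and 3 in WT (Hk2, Pfkp and Aldoa), and none fell. It was 3 in KO, Tpi1 being lost, and the same 3 in WT without KO 2 h replicate 1. Of all tested genes, 14.1% rose in KO and 10.7% in WT, or 17.5% and 15.5% without that library. Hk2 (chr6:82725025-82774454, minus strand, positions on GRCm38 for all genes) commits glucose to the cell by phosphorylating it. It had 69.7, 76.2 and 45.5 CPM in KO at 2 h, against 10.5, 18.0 and 10.4 CPM in KO at 0 h. In WT it had 38.0, 89.0 and 56.4 CPM at 2 h, against 11.0, 22.2 and 7.93 CPM at 0 h. Every 2 h library lay above every 0 h library, and batch 2 was highest at 0 h and at 2 h in both genotypes. The log2 fold change was 2.31 ± 0.42 in KO and 2.18 ± 0.41 in WT (edgeR adjusted p = 0.00214 and 0.00382), and both calls held in all 22 alternative settings. Hk1 had 121, 50.6 and 37.5 CPM in KO at 2 h, against 58.6, 53.5 and 57.2 CPM in KO at 0 h, with replicate 1 alone above the rest. Its log2 fold change in KO was 0.26 with that library and -0.37 without it, and neither was called.

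Pfkp (chr13:6579768-6648777, minus strand), the platelet form of phosphofructokinase, was the one of the 3 phosphofructokinase genes that was called. It had 70.4, 121 and 127 CPM in KO at 2 h, against 67.3, 74.0 and 62.4 CPM in KO at 0 h, and 81.8, 113 and 119 CPM in WT at 2 h, against 63.4, 72.2 and 57.4 CPM in WT at 0 h. The WT libraries of the 2 times did not overlap, and in KO replicate 1 at 2 h lay within the 0 h range. The log2 fold change was 0.66 ± 0.21 in KO and 0.71 ± 0.21 in WT (edgeR adjusted p = 0.0373 and 0.0346). Leaving out KO 2 h replicate 1 gave 0.87 in KO (adjusted p = 0.00162). The KO call was lost without KO 2 h replicate 2 or 3, any 1 KO 0 h library, or WT 0 h replicate 1 or 2 (adjusted p between 0.0507 and 0.118), and also with the animal as a block (0.0604), with no filter on low counts (0.0606) and in a fit of only the groups compared (0.113). The WT call was lost without WT 2 h replicate 2 or 3, any 1 WT 0 h library, or KO 0 h replicate 1 (between 0.0522 and 0.129), or with no filter (0.0527). Pfkl had 89.2 ± 13.7 CPM in KO at 2 h and 83.4 ± 1.78 CPM in KO at 0 h (SD, n = 3 each), and was not called. Pfkm was at 17.3, 2.90 and 0.991 CPM in KO at 2 h, against 1.74, 5.43 and 2.73 CPM in KO at 0 h, with replicate 1 far above the rest. Pfkfb3, the enzyme that makes an allosteric activator of phosphofructokinase, changed by -0.06 in KO and 0.094 in WT on the log2 scale and was not called.

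Aldoa (chr7:126795234-126800751, minus strand) splits the phosphorylated hexose into trioses. It had 404, 477 and 577 CPM in KO at 2 h, against 286, 243 and 378 CPM in KO at 0 h, and 429.8, 494 and 489 CPM in WT at 2 h, against 315, 284 and 331 CPM in WT at 0 h. No library of the 2 times overlapped within a genotype. The rise was 0.69 ± 0.18 in KO and 0.60 ± 0.18 in WT on the log2 scale (edgeR adjusted p = 0.0151 and 0.0348). The KO call was lost without KO 0 h replicate 1 or 2 (adjusted p = 0.0600 and 0.0632), and the WT call without WT 2 h replicate 2 or 3, any 1 WT 0 h library, or KO 0 h replicate 1 (adjusted p between 0.0518 and 0.126). A fit of only the groups compared also ended the KO call (0.102), and one with no filter on low counts the WT call (0.0812). Tpi1 (chr6:124810586-124814296, minus strand), triosephosphate isomerase, had 81.2, 48.8 and 44.6 CPM in KO at 2 h, against 36.4, 29.2 and 39.5 CPM in KO at 0 h, and 38.4, 52.9 and 41.0 CPM in WT at 2 h, against 37.4, 38.4 and 35.9 CPM in WT at 0 h. Its KO libraries did not overlap, its WT libraries did, and replicate 1 was far above the other KO libraries at 2 h. The KO rise of 0.71 ± 0.21 (edgeR adjusted p = 0.0291) became 0.41 without KO 2 h replicate 1 and was no longer called (adjusted p = 0.0645), and the call also ended without either of the first 2 KO 0 h libraries (0.0696 and 0.0993) and in a fit of only the groups compared (0.109). Gpi1, glucose phosphate isomerase, moved by 0.06 in KO and -0.044 in WT, and Aldoc by 0.16 in KO and -0.17 in WT, and neither was called.

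**Figure D3:**
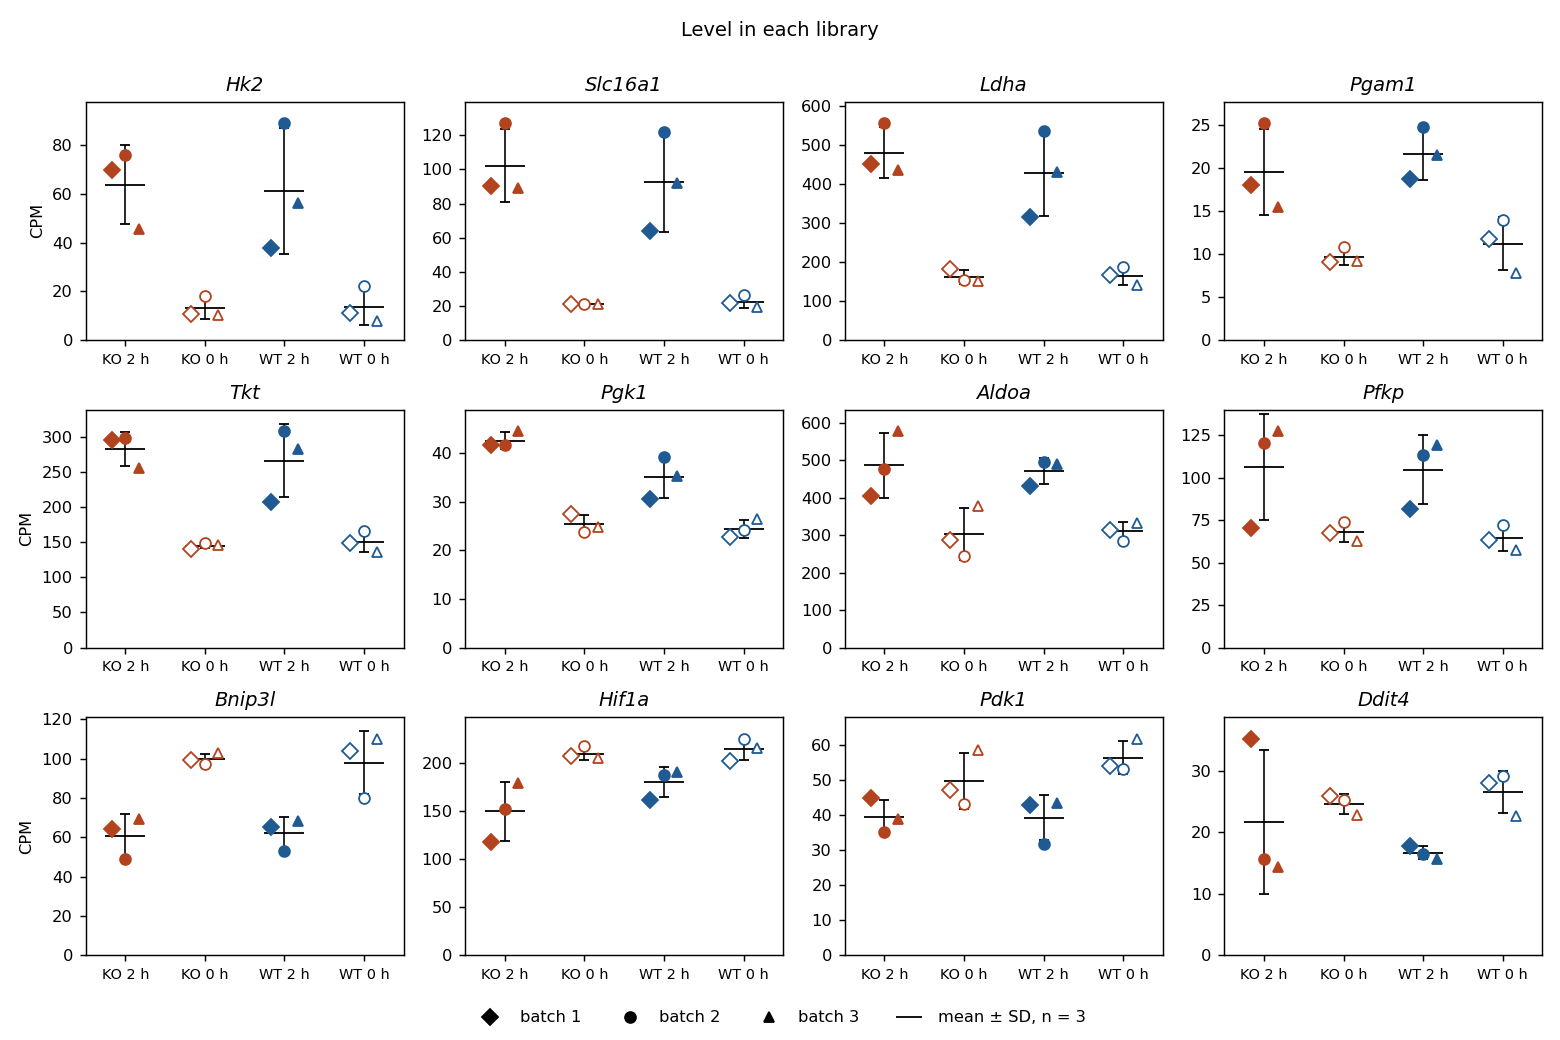
Level of 12 members in each library as CPM, by group and batch, with the mean and SD of the 3 libraries as lines. Hk2, Slc16a1, Ldha, Pgam1, Tkt, Pgk1 and Aldoa are higher in every 2 h library than in any 0 h library of the same genotype, Bnip3l and Hif1a are lower, and KO 2 h replicate 1 (the diamond in the KO 2 h column) is low for Pfkp and high for Ddit4.

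In lower glycolysis, Pgk1 and Pgam1 rose in both genotypes, Pkm rose in KO, and Gapdh and Eno1 were not called, so 3 of 5 genes rose in KO and 2 of 5 in WT. Leaving out KO 2 h replicate 1 made it 2 in KO and 3 in WT, since Pkm was lost in KO and gained in WT. The share of all tested genes that rose was 14.1% in KO and 10.7% in WT, or 17.5% and 15.5% without that library. Pgk1 (chrX:106187100-106203699, plus strand), phosphoglycerate kinase, makes the first ATP of the pathway. It had 41.6, 41.7 and 44.6 CPM in KO at 2 h, against 27.5, 23.8 and 24.8 CPM in KO at 0 h, and 30.6, 39.2 and 35.3 CPM in WT at 2 h, against 22.9, 24.1 and 26.5 CPM in WT at 0 h. Its log2 fold change was 0.75 ± 0.12 in KO and 0.51 ± 0.12 in WT (edgeR adjusted p = 0.00101 and 0.00998), and the WT call alone was lost, without WT 2 h replicate 2 (adjusted p = 0.0512). Every 2 h library of Pgk1 lay above every 0 h library. Pgam1 (chr19:41911923-41918660, plus strand), phosphoglycerate mutase, had 17.9, 25.1 and 15.5 CPM in KO at 2 h, against 9.01, 10.8 and 9.20 CPM in KO at 0 h, and 18.6, 24.8 and 21.4 CPM in WT at 2 h, against 11.8, 13.9 and 7.81 CPM in WT at 0 h. All its 2 h libraries lay above all its 0 h libraries. The rise was 1.02 ± 0.24 in KO and 0.96 ± 0.24 in WT (edgeR adjusted p = 0.00915 and 0.0147). Leaving out WT 2 h replicate 2 ended the WT call (adjusted p = 0.0678), as did leaving out WT 0 h replicate 3 (0.0596).

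Pkm (chr9:59656368-59679375, plus strand) makes pyruvate in the last step, and its splice forms were not separated. It had 348, 287 and 253 CPM in KO at 2 h, against 219, 219 and 234 CPM in KO at 0 h, and 267, 307 and 263 CPM in WT at 2 h, against 224, 239.7 and 214 CPM in WT at 0 h. Neither genotype's libraries overlapped between times. The log2 fold change was 0.40 ± 0.13 in KO and 0.30 ± 0.13 in WT (edgeR adjusted p = 0.0442 and 0.137). The KO call held in only 6 of 22 settings and was lost without any 1 library other than KO 2 h replicate 3 and WT 2 h replicate 2 (adjusted p between 0.0582 and 0.123), while WT was called without KO 2 h replicate 1 (0.0357). The KO call of Pkm was lost, too, with RLE size factors (0.0505), with the animal as a block (0.0770), with no filter on low counts (0.113) and with only the groups compared in the fit (0.178). Gapdh, the NADH-producing dehydrogenase, had 157, 108 and 107 CPM in KO at 2 h, against 100.4, 90.4 and 96.4 CPM in KO at 0 h. These did not overlap, but the change of 0.37 ± 0.15 was not called (edgeR adjusted p = 0.0878), except without KO 2 h replicate 3 (0.0474). Eno1, enolase, had 92.9 ± 4.84 CPM in KO at 2 h and 84.5 ± 15.4 CPM in KO at 0 h (SD, n = 3 each), and 97.8 ± 18.0 CPM in WT at 2 h and 90.7 ± 5.79 CPM in WT at 0 h. Aldoa, Tpi1, Gapdh, Pgk1, Pgam1, Eno1 and Ldha have near-identical copies elsewhere in the genome, and since the treatment of reads that match several places is not given, their counts are uncertain to that extent.

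In lactate metabolism 2 of the 3 genes tested rose: Ldha and Slc16a1 rose in both genotypes, while Slc16a3 was not called and Ldhb was too low to test. The same 2 rose without KO 2 h replicate 1. Among all tested genes 14.1% rose in KO and 10.7% in WT, or 17.5% and 15.5% without that library. Slc16a1 (chr3:104638668-104658462, plus strand) encodes MCT1, a proton-coupled carrier of lactate and pyruvate. It had 90.4, 127 and 89.2 CPM in KO at 2 h, against 21.1, 21.1 and 21.2 CPM in KO at 0 h. In WT the values were 63.8, 122 and 91.9 CPM at 2 h, against 21.8, 26.4 and 19.3 CPM at 0 h. The lowest 2 h library, WT replicate 1, was still more than 2 times the highest 0 h library. The rise was 2.28 ± 0.23 in KO and 2.04 ± 0.23 in WT on the log2 scale (edgeR adjusted p = 9.29e-05 and 0.000234). Ldha (chr7:46841475-46855627, plus strand) had 449, 554 and 436 CPM in KO at 2 h, against 182, 153 and 149.9 CPM in KO at 0 h, and 314, 534 and 430.3 CPM in WT at 2 h, against 166, 186 and 139 CPM in WT at 0 h. No Ldha library of the 2 times overlapped, and WT 2 h replicate 1 was the lowest at 2 h. Its rise was 1.57 ± 0.20 in KO and 1.38 ± 0.20 in WT (edgeR adjusted p = 0.000305 and 0.000851), and the calls of Slc16a1 and Ldha in both genotypes held in all 22 settings. At 2 h Ldha reached 145 ± 19.6 CPM per kb in KO and 129 ± 33.3 in WT, beside 167 ± 29.9 in KO and 162 ± 12.3 in WT for Aldoa.

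Slc16a3, the MCT4 carrier that other cells use to export lactate, had 5.08, 3.02 and 1.42 CPM in KO at 2 h, against 1.59, 1.81 and 2.80 CPM in KO at 0 h, and 1.73, 2.59 and 1.81 CPM in WT at 2 h, against 1.19, 3.38 and 3.11 CPM in WT at 0 h. The groups overlapped, and its log2 fold change of 0.54 in KO became 0.072 without KO 2 h replicate 1. Ldhb had 4.06, 0.483 and 0.248 CPM in KO at 2 h, where replicate 1 stood alone, against 0.227, 0.453 and 0.600 CPM in KO at 0 h. In WT it had 0.799, 0.324 and 0.314 CPM at 2 h, against 0.397, 0.724 and 0.122 CPM at 0 h. Apart from KO 2 h replicate 1, no library had more than 9 counts of Ldhb.

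In the pentose phosphate pathway Tkt rose in both genotypes, Pgd and Pgls rose in KO, Rpia fell in WT, and G6pdx and Taldo1 were not called, so 3 of 6 genes rose in KO while 1 rose and 1 fell in WT. In KO 2 rose without KO 2 h replicate 1, Pgls being lost, and in WT 1 still rose and 1 fell. Of all tested genes 14.1% rose and 13.0% fell in KO, and 10.7% rose and 9.06% fell in WT. Without that library the shares were 17.5% and 14.1% in KO and 15.5% and 14.1% in WT. Tkt (chr14:30548359-30574720, plus strand), transketolase, moves sugar carbons between glycolysis and ribose phosphate. It had 296, 298 and 255 CPM in KO at 2 h, against 141, 148 and 146 CPM in KO at 0 h, and 208, 308 and 282 CPM in WT at 2 h, against 149, 166 and 137 CPM in WT at 0 h. All 2 h libraries lay above all 0 h libraries. The rise was 0.96 ± 0.15 in KO and 0.82 ± 0.15 in WT (edgeR adjusted p = 0.000977 and 0.00306), called in all 22 settings. Rpia (chr6:70765720-70792232, minus strand), which makes ribose phosphate, had 69.1, 63.9 and 67.6 CPM in KO at 2 h, against 82.0, 80.4 and 83.1 CPM in KO at 0 h, and 52.9, 70.6 and 66.3 CPM in WT at 2 h, against 81.6, 73.7 and 91.5 CPM in WT at 0 h. Its 2 h libraries lay below its 0 h libraries in both genotypes. The log2 fold change of Rpia was -0.29 ± 0.12 in KO (edgeR adjusted p = 0.0970) and -0.38 ± 0.12 in WT (adjusted p = 0.0466). A KO call was reached by DESeq2 (adjusted p = 0.0482) and, in edgeR, without both 2 h libraries of batch 1 (adjusted p = 0.0256). The WT call held in 10 of 22 settings and was lost without any 1 library other than KO 2 h replicate 1, WT 2 h replicate 2 and WT 0 h replicate 2 (adjusted p between 0.0505 and 0.185), with the animal as a block (0.0735), with no filter on low counts (0.0844) and with only the groups compared in the fit (0.0671).

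The oxidative arm makes NADPH. G6pdx, glucose phosphate dehydrogenase, which opens the pathway, had 45, 41.3 and 48.9 CPM in KO at 2 h, against 49.8, 37.1 and 54.6 CPM in KO at 0 h. In WT it had 45.9, 49.9 and 48.1 CPM at 2 h, against 49.5, 42.0 and 52.4 CPM at 0 h. The times overlapped, and the log2 fold change was -0.068 ± 0.15 in KO and -0.0021 ± 0.14 in WT. Pgd (chr4:149149991-149166771, minus strand), the NADPH-making phosphogluconate dehydrogenase, had 121, 126 and 94.2 CPM in KO at 2 h, against 80.1, 76.6 and 85.4 CPM in KO at 0 h, and 96.4, 134 and 112 CPM in WT at 2 h, against 85.0, 91.2 and 85.4 CPM in WT at 0 h. Neither genotype overlapped between times, with a change of 0.49 ± 0.14 in KO (edgeR adjusted p = 0.0234) and 0.39 ± 0.14 in WT (0.0773). The KO call was lost without KO 2 h replicate 2 or KO 0 h replicate 1 or 2 (adjusted p between 0.0711 and 0.0792) or with only the groups compared in the fit (0.0816). In WT the gene was called without KO 2 h replicate 3 (0.0489), without WT 2 h replicate 1 (0.0366) and by DESeq2 (0.0485). Pgls (chr8:71592176-71601092, plus strand), the lactonase between those enzymes, had 76.8, 56.8 and 66.1 CPM in KO at 2 h, against 48.4, 42.3 and 55.2 CPM in KO at 0 h, and 46.9, 53.4 and 62.7 CPM in WT at 2 h, against 54.9, 52.5 and 48.6 CPM in WT at 0 h. The KO libraries did not overlap and the WT libraries did. Its KO rise of 0.44 ± 0.15 (edgeR adjusted p = 0.0443) became 0.34 without KO 2 h replicate 1 (adjusted p = 0.0990) and was also lost without KO 2 h replicate 3, WT 2 h replicate 2, KO 0 h replicate 1 or 2, or any 1 WT 0 h library (between 0.0565 and 0.139). It ended, too, with Rn45s left out (0.0524), with the animal as a block (0.0534), with no filter on low counts (0.0875) and in a fit of only the groups compared (0.133). Taldo1 had 102 ± 17.3 CPM in KO at 2 h and 99.9 ± 14.9 CPM in KO at 0 h (SD, n = 3 each), and 91.0 ± 4.87 CPM in WT at 2 h and 97.4 ± 14.6 CPM in WT at 0 h.

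None of the 7 hypoxia genes rose, and 2 fell in each genotype, Hif1a and Bnip3l in KO and Pdk1 and Bnip3l in WT. Their median log2 fold change was -0.24 in KO and -0.52 in WT. Without KO 2 h replicate 1 the median was -0.43 in KO and -0.52 in WT, and 3 genes fell in each genotype, Ddit4 being added in both. Among all tested genes 14.1% rose and 13.0% fell in KO, and 10.7% rose and 9.06% fell in WT. These shares were 17.5% and 14.1% in KO and 15.5% and 14.1% in WT without that library. Bnip3l (chr14:66985239-67008877, minus strand), also called Nix, is a mitophagy receptor and a known HIF target. It had 64.3, 48.8 and 69.4 CPM in KO at 2 h, against 99.5, 97.4 and 103 CPM in KO at 0 h, and 65.3, 52.9 and 68.4 CPM in WT at 2 h, against 104, 79.9 and 110.0 CPM in WT at 0 h. Every 2 h library lay below every 0 h library. It fell by 0.71 in KO and by 0.65 in WT on the log2 scale (SE 0.16 and 0.16, edgeR adjusted p = 0.00729 and 0.0138). The KO call held in all 22 settings, and leaving out WT 2 h replicate 2 ended the WT call (adjusted p = 0.0694), as did leaving out replicate 1 or replicate 3 of WT at 0 h (0.0550 and 0.0646). Hif1a (chr12:73901375-73947530, plus strand) had 118, 151 and 179 CPM in KO at 2 h, against 206, 217 and 204 CPM in KO at 0 h, and 161, 187 and 190.5 CPM in WT at 2 h, against 202, 225 and 215 CPM in WT at 0 h. The times did not overlap in either genotype, and KO 2 h replicate 1 was the lowest library. The change was -0.48 ± 0.14 in KO (edgeR adjusted p = 0.0282) and -0.25 ± 0.14 in WT (0.260), and -0.34 in KO without that library (0.0397). The KO call was lost without KO 2 h replicate 2 or any 1 KO 0 h library (adjusted p between 0.0582 and 0.0799), and also with no filter on low counts (0.0614) and in a fit of only the groups compared (0.119).

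Pdk1 (chr2:71873224-71903858, plus strand), the kinase that keeps pyruvate out of the mitochondrial oxidation pathway, had 44.7, 35.0 and 38.8 CPM in KO at 2 h, against 47.2, 43.1 and 58.6 CPM in KO at 0 h, and 42.7, 31.7 and 43.3 CPM in WT at 2 h, against 53.9, 53.2 and 61.7 CPM in WT at 0 h. The WT libraries did not overlap and the KO libraries did. The change was -0.34 ± 0.16 in KO (edgeR adjusted p = 0.128) and -0.52 ± 0.16 in WT (0.0365), and the WT call was lost without WT 2 h replicate 2 or 3, any 1 WT 0 h library, or KO 0 h replicate 1 (adjusted p between 0.0522 and 0.148). Ddit4, also called Redd1, an inhibitor of mTORC1 signalling that hypoxia and stress induce, depended on 1 library. It had 35.2, 15.6 and 14.3 CPM in KO at 2 h, against 25.9, 25.2 and 22.7 CPM in KO at 0 h, and 17.8, 16.5 and 15.7 CPM in WT at 2 h, against 28.0, 29.1 and 22.6 CPM in WT at 0 h. Apart from KO 2 h replicate 1, which was the highest of all 12 libraries, the 2 h libraries lay below the 0 h libraries. The change in KO was -0.24 ± 0.28 with that library (edgeR adjusted p = 0.543) and -0.72 without it (0.00262), and the change in WT was -0.67 ± 0.27 with it (0.114) and -0.67 without it (0.00226). Bnip3, the relative of Bnip3l, had 6.74 ± 1.28 CPM in KO at 2 h and 7.75 ± 0.718 CPM in KO at 0 h (SD, n = 3 each), and 6.31 ± 1.53 CPM in WT at 2 h and 7.72 ± 1.05 CPM in WT at 0 h. Egln1 and Egln3, the prolyl hydroxylases, were not called. Egln3 had 7.45, 1.21 and 1.05 CPM in KO at 2 h, against 1.21, 2.94 and 1.07 CPM in KO at 0 h, so its log2 fold change in KO, 0.78 with all libraries, was -0.60 without replicate 1.

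Between KO and WT no member was called at either time. At 2 h 0 members were called between KO and WT by edgeR and 0 by DESeq2, and 1 had an unadjusted p under 0.05 in edgeR. Over all tested genes edgeR called 0%, and 5.23% had an unadjusted p under 0.05, so that the share of the members, 3.03%, was no larger. That member was Pgk1, at 41.6, 41.7 and 44.6 CPM in KO and 30.6, 39.2 and 35.3 CPM in WT. The KO libraries all lay above the WT libraries, the only member of which this was true at 2 h in either direction, where 8.22% of all tested genes did not overlap (4.62% higher and 3.60% lower in KO). Its log2 fold change was 0.29 ± 0.12 (unadjusted p = 0.0322, edgeR adjusted p = 0.887), and KO was higher in 3 of 3 batches. By unadjusted p, Pgls followed, at 76.8, 56.8 and 66.1 CPM in KO and 46.9, 53.4 and 62.7 CPM in WT. Hif1a came next with a change of -0.26 ± 0.14 (edgeR adjusted p = 0.887), and KO was lower in 3 of 3 batches. Ldha and Pgls were likewise higher in KO in 3 of 3 batches, and Pfkfb3 was lower. The share of all tested genes alike in 3 of 3 batches was not counted, so this agreement shows no trait of these members. The groups overlapped for both Pgls and Hif1a. Without KO 2 h replicate 1 the change of Hif1a was -0.12, and that of Pgls, 0.28 ± 0.15 with all libraries, was 0.18. The sums of the genes of dividing cells and of monocytes, macrophages and neutrophils were highest in KO 2 h replicate 1, as given above. Their part in these values was not tested.

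For the genes with the widest response the genotypes were close at 2 h, within wide errors. The log2 fold change of KO against WT was 0.059 ± 0.39 for Hk2, 0.15 ± 0.22 for Slc16a1, 0.17 ± 0.19 for Ldha and 0.088 ± 0.15 for Tkt (SE, edgeR). The members with the largest positive values, Egln3 at 1.16 ± 0.82, Pfkm at 1.12 ± 0.90, Slc16a3 at 0.57 ± 0.53 and Aldoc at 0.56 ± 0.47, were also low genes with wide errors. Without KO 2 h replicate 1 these became -0.21, -0.68, 0.11 and -0.012, still with 0 members called, and the values of Hk1 and Ddit4, 0.25 and 0.32 with that library, were -0.37 and -0.16 without it. The median over the members was 0.083 with that library and -0.012 without it, against 0.0065 and 0.0092 over all tested genes. In total 12 of the 34 members were highest of all 12 libraries in KO 2 h replicate 1 and 2 were lowest, Pfkfb3 and Hif1a. The share of all tested genes that were highest or lowest in that library was not counted, so these counts show no trait of the members.

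**Figure D4:**
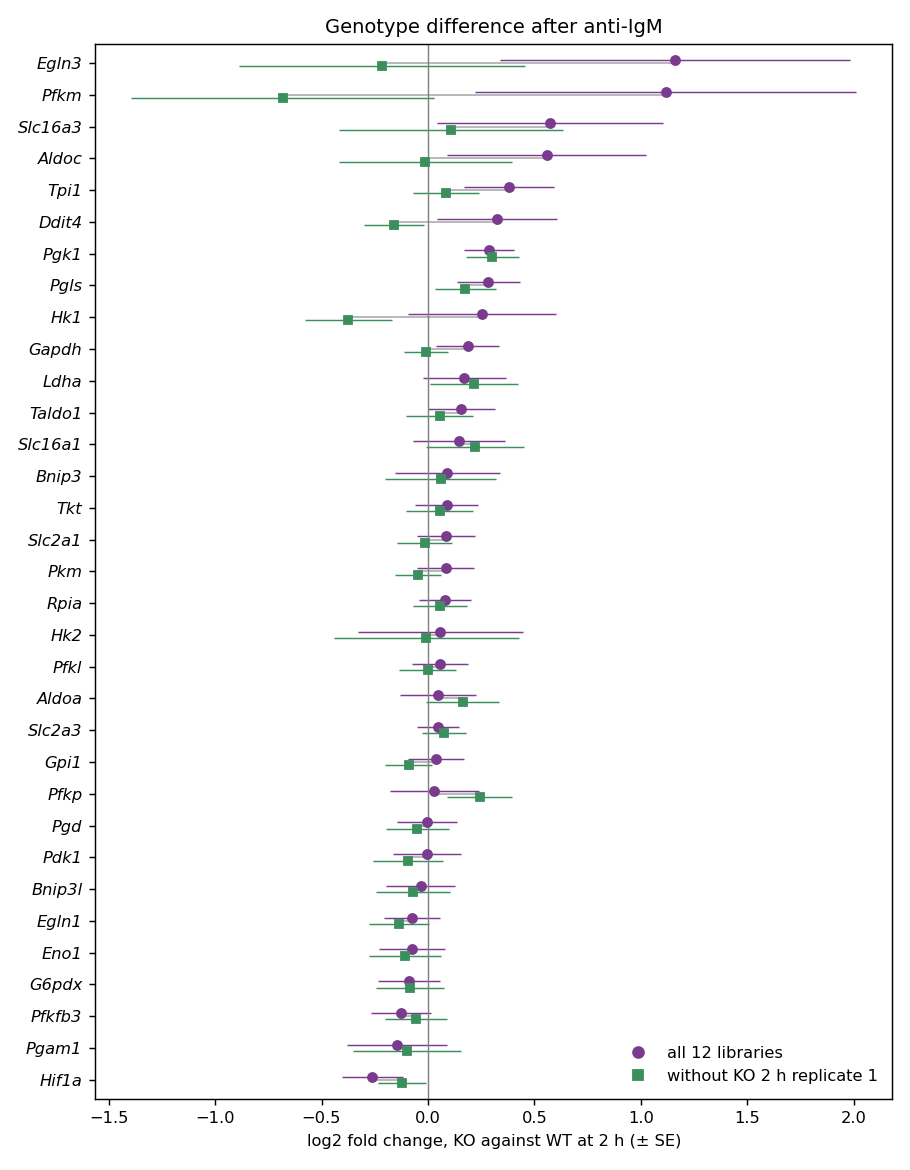
Log2 fold change of KO against WT at 2 h for each tested member with its SE, from all 12 libraries and without KO 2 h replicate 1. No member was called in either, and the 4 at the top (Egln3, Pfkm, Slc16a3 and Aldoc) move to near or past 0 when that library is left out, whereas Pgk1 stays at about the same value.

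At 0 h 0 members were called between KO and WT by edgeR and 0 by DESeq2, and 0 had an unadjusted p under 0.05 in edgeR, where 0.743% of all tested genes had one. The log2 fold changes ran from -0.48 (Egln3) to 0.39 (Pfkm), with a median of -0.037. The lowest unadjusted p belonged to Pdk1, at 47.2, 43.1 and 58.6 CPM in KO and 53.9, 53.2 and 61.7 CPM in WT, with a change of -0.18 ± 0.15 (unadjusted p = 0.265). Pgam1 and Slc2a3 followed with -0.20 ± 0.24 and 0.082 ± 0.097. No member separated the genotypes at 0 h, where 5.85% of all tested genes did not overlap (2.95% higher and 2.90% lower in KO). The response to anti-IgM did not differ detectably between KO and WT either: 0 members were called by edgeR and 0 by DESeq2, and 0 had an unadjusted p under 0.05 in edgeR, where 0.327% of all tested genes had one. The lowest unadjusted p values for that difference were those of Pgls (0.38 ± 0.21, unadjusted p = 0.0969), Tpi1 (0.46 ± 0.30, unadjusted p = 0.148) and Egln3 (1.64 ± 1.13, unadjusted p = 0.171). Without KO 2 h replicate 1 these 3 differences were 0.27, 0.17 and 0.27. A member called in 1 genotype and not in the other, such as Tpi1, Pkm, Pgd, Pgls, Hif1a, Rpia or Pdk1, was therefore not shown to respond differently. A p that misses the threshold does not show that the genotypes were alike.

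In 3 families one paralog gained on the other in all 6 mice between 0 h and 2 h. The ratio of the counts of 2 paralogs in 1 library needs no library scaling, so its change, 2 h minus 0 h, was taken in each of the 6 mice for 9 pairs and tested with an exact two-sided sign-flip permutation test, for which 0.03125 is the smallest p that 6 animals allow. Hk2 gained on Hk1 in 6 of 6 animals, by 2.19 ± 0.53 in KO and 2.39 ± 0.83 in WT on the log2 scale (SD, n = 3 each). Slc16a1 gained on Slc16a3 in 6 of 6, by 1.77 ± 1.31 in KO and 2.20 ± 1.06 in WT. Bnip3 gained on Bnip3l in 6 of 6, by 0.52 ± 0.078 in KO and 0.34 ± 0.21 in WT. Each of these 3 pairs reached the smallest exact p, 0.03125, which is 0.0938 after Benjamini-Hochberg adjustment over the 9 pairs and so does not pass it. Pfkp gained on Pfkl by a mean of 0.58 in 5 of 6 animals (exact permutation p = 0.0625), the exception being the KO animal of batch 1 at -0.16. Slc2a1 against Slc2a3 (-0.24) and Aldoc against Aldoa (-0.72) fell in 5 of 6, with the same animal as the exception. Pfkm against Pfkl, Ldha against Ldhb and Egln3 against Egln1 were mixed, and that animal changed by 3.06, -2.69 and 2.66 in these 3 pairs. A changed ratio shows unequal change and does not by itself say which paralog moved. By level, Bnip3 and Bnip3l were both lower at 2 h in 6 of 6 animals, so Bnip3 did not rise and Bnip3l fell more. Hk2 and Slc16a1 were higher at 2 h in 6 of 6.

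**Figure D5:**
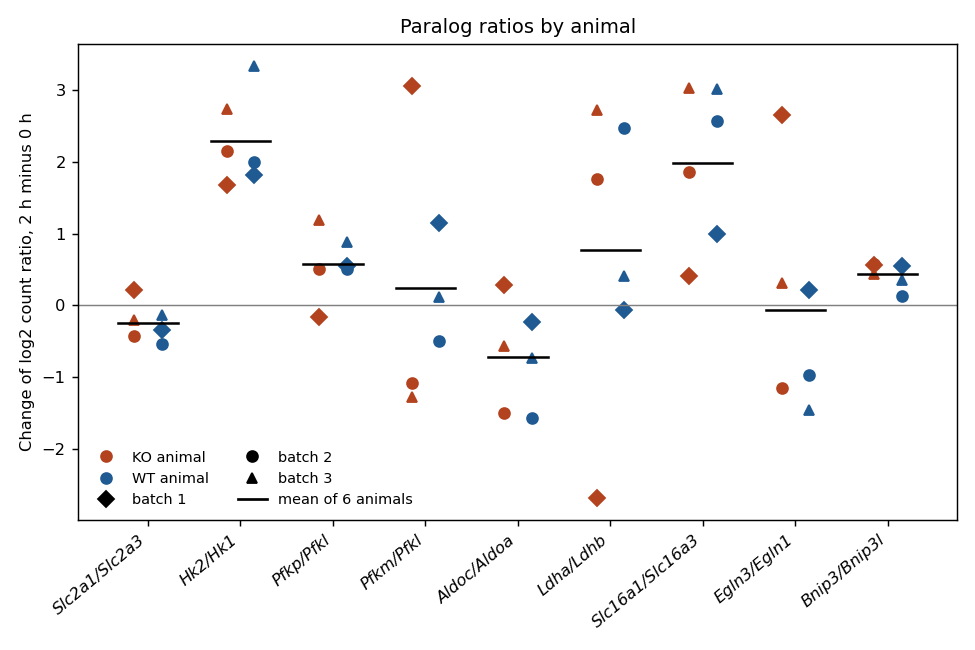
Change of the log2 count ratio of 9 pairs of paralogs, 2 h minus 0 h, with 1 point per mouse (KO left of WT, symbol by batch) and a line at the mean of the 6. Hk2/Hk1, Slc16a1/Slc16a3 and Bnip3/Bnip3l lie above 0 in all 6 animals, and the KO animal of batch 1 (KO diamond) stands apart for Pfkm/Pfkl, Ldha/Ldhb and Egln3/Egln1.

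Beyond the members, other genes of the same pathways were counted from lists set by function. Over all tested genes 14.1% rose and 13.0% fell in KO, and 10.7% rose and 9.06% fell in WT, as given above. Those shares were 17.5% and 14.1% in KO and 15.5% and 14.1% in WT without KO 2 h replicate 1. Of 21 other glucose and glycolysis genes tested, 2 rose and 4 fell in KO (9.52% and 19.0%) and 1 rose and 4 fell in WT (4.76% and 19.0%). With that library left out 3 rose and 5 fell in each genotype. The falls included Pgam2, the muscle paralog of Pgam1 (-1.56 in KO and -1.49 in WT), Slc2a6, a sugar transporter (-0.76 and -0.62), and Pgm2l1 (-0.65 and -0.54). Their WT calls ended at an edgeR adjusted p up to 0.0518 without WT 0 h replicate 1 for Pgam2, up to 0.0668 without WT 2 h replicate 2 or WT 0 h replicate 3 for Slc2a6, and up to 0.0802 without WT 2 h replicate 2 or 3 or WT 0 h replicate 1 for Pgm2l1. Of 23 genes of pyruvate and lactate handling, 3 rose and 4 fell in KO (13.0% and 17.4%) and 2 rose and 2 fell in WT (8.70% and 8.70%), and without that library 5 rose and 2 fell in KO and 4 rose and 2 fell in WT. There were falls in both genotypes of Pdk2, a paralog of Pdk1 (-1.59 and -1.05), and Gpd1l (-1.20 and -0.96). The WT call of Pdk2 ended without any 1 WT 2 h library, WT 0 h replicate 1 or 3, or KO 0 h replicate 1 (edgeR adjusted p up to 0.129). Of 9 other pentose phosphate genes, 2 rose and 1 fell in KO and 0 were called in WT by edgeR, with 1 at an unadjusted p under 0.05 in edgeR and 1 called by DESeq2 in WT. Without that library 2 rose and 0 fell in KO and 1 rose and 0 fell in WT by edgeR.

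Of 25 other hypoxia genes tested, 7 rose and 5 fell in KO (28.0% and 20.0%, where 14.1% and 13.0% of all tested genes did) and 5 rose and 3 fell in WT (20.0% and 12%, where 10.7% and 9.06% did). Without KO 2 h replicate 1, 8 rose and 5 fell in KO and 8 rose and 4 fell in WT. Vegfa, an angiogenic factor and textbook HIF target, had 41.6, 77.8 and 40.4 CPM in KO at 2 h, against 7.88, 9.74 and 6.34 CPM in KO at 0 h, and 38.9, 63.1 and 45.5 CPM in WT at 2 h, against 6.67, 8.93 and 6.04 CPM in WT at 0 h (log2 fold change 2.76 in KO and 2.78 in WT, edgeR adjusted p = 0.000121 and 0.000209). Its libraries did not overlap between times. Bhlhe40, a transcriptional repressor, also rose, by 1.94 in KO and 2.38 in WT on the log2 scale, and Adm, the peptide hormone adrenomedullin, by 1.79 and 1.56. Arnt, the constant partner of the HIF alpha subunits, fell by 0.82 in KO and 0.62 in WT, and Mxi1, a Myc antagonist, by 1.26 and 0.99. Among 15 glucose-sensing and growth regulators, 2 rose and 3 fell in each genotype (13.3% and 20.0%), and without KO 2 h replicate 1, 2 rose and 4 fell in each. Myc, a transcription factor known to act on Ldha and Hk2, had 706, 1258 and 632 CPM in KO at 2 h, against 110.1, 125 and 73.9 CPM in KO at 0 h, and 738, 1273 and 799 CPM in WT at 2 h, against 105, 123 and 70.1 CPM in WT at 0 h. It rose by 3.07 in KO and 3.23 in WT on the log2 scale (edgeR adjusted p = 0.000163 and 0.00021), with every 2 h library above every 0 h library. Txnip, an inhibitor of glucose uptake, had 171, 140.4 and 200.2 CPM in KO at 2 h, against 918, 452 and 623 CPM in KO at 0 h, and 173, 132 and 181 CPM in WT at 2 h, against 786, 297 and 629.8 CPM in WT at 0 h. It fell by 1.96 in KO and 1.82 in WT (edgeR adjusted p = 0.00187 and 0.00379), with every 2 h library below every 0 h library.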

How the data were processed

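Poly(A) RNA of sorted splenic FO B cells was sequenced in 12 libraries, per the labels' protocols. Reads were aligned with STAR to mm10, per the submitters' processing notes, the STAR version being not given in the sources used here, like the counting tool, strand setting and annotation. Reads of antisense or overlapping partners (for example Fam129c at Pgls, Senp1 at Pfkm, Pitrm1 at Pfkp, Ikbkg at G6pdx) can therefore not be told apart. The authors deposited 1 table of raw counts by gene symbol for each library, with no normalization. The total of a library was 5666013 to 14153396.

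From these counts, edgeR 4.0.16 (R 4.3.3) was run on all 12 libraries: filterByExpr on the 4 groups (12242 genes), TMM, 1 mean per group, quasi-likelihood F tests, two-sided, Benjamini-Hochberg over all tested genes, called at an adjusted p under 0.05. SEs follow from the F statistic. CPM was computed here with the TMM factors. The procedure was tested on simulated counts. Alternatives were RLE factors, other filters, DESeq2 1.42.0, Rn45s left out, batch and animal blocks, fits of only the groups compared, each library left out, and both 2 h libraries of batch 1 left out. Changes within mice used log2(CPM + 0.5), paralog ratios log2 of counts + 0.5. Exon lengths and gene positions came from GENCODE M21 (GRCm38), promoter windows from RefSeq (GRCm38.p6), which gave none for Slc2a3 and Bnip3l.

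Labels mark the replicate number as a batch, so the numbers pair the samples. Deviations from group means correlated at -0.40 to 0.86 for libraries of the same number and at -0.75 to 0.60 for others. In the main fit P values measure the spread between the libraries within a group, each from a different mouse. That fit leaves the pairing within mice unused, while the animal block and the paralog ratios use it. No libraries of a group agreed within sampling noise (chi-square per degree of freedom 13.4 or more). The members, lists, pairs of paralogs and tests were chosen with earlier results of these data known. By rule, any of the 34 members could be named, and other pathway genes only where called (the 3 with the greatest change in each direction per list) or where a result turned on them. Tigar, Idh1 and 3 marker genes (Ighd, Ighm and Adgre1) were not analysed here.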

Additional observations from a re-analysis of the deposited data

How the results depend on the processing

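The 14 members called at 2 h against 0 h in KO became 7 when only those 2 groups were fitted, and 7 to 13 when 1 library was left out. The 11 called in WT became 5 to 14 when 1 library was left out: 5 when replicate 2 of WT at 2 h or replicate 3 of WT at 0 h was left out, 6 when replicate 1 of WT at 0 h was, and 7 when replicate 3 of WT at 2 h or replicate 1 of KO at 0 h was. In KO the 7 came without KO 0 h replicate 1 or 2. With the batch as a replicate block 14 members were called in KO and 12 in WT, and with the animal as a replicate block 11 and 10. The animal block lost the KO calls of Pfkp, Pkm and Pgls (adjusted p = 0.0604, 0.0770 and 0.0534) and the WT call of Rpia (0.0735). Without a filter on low counts the KO calls of Pfkp, Pkm, Pgls and Hif1a and the WT calls of Pfkp, Aldoa and Rpia were lost, and with only the groups compared the KO calls of Pfkp, Aldoa, Tpi1, Pkm, Pgd, Pgls and Hif1a and the WT call of Rpia. Fits of only the groups compared and fits without a library hold fewer samples, and the cause of the other losses was not tested. Fitting only the WT groups also gained the WT calls of Slc2a1 and Ddit4 (edgeR adjusted p = 0.0448 and 0.00924). Over all genes, the 3316 calls in KO became 1626 when only the groups compared were fitted. The 2419 in WT became 1349 and 1551 when replicate 2 or replicate 3 of WT at 2 h was left out, and 1529 and 1492 when replicate 1 or replicate 3 of WT at 0 h was. They became 4745 with the batch as a replicate block and without KO 2 h replicate 1, an alternative chosen after seeing the data. KO against WT at 0 h gave 1 call, no member, by DESeq2 and under that same added alternative. The alternatives gave 3531 values of single members, most of them for results not called in the main fit. Only the 14 KO and 11 WT calls, each under 22 alternatives, could lose a call, and 97 of those values did. A further 25 values gained a call and 0 changed sign while called. Depth limits the low genes most: in the shallowest library 3 counts stood for 1.02 CPM, and Ldhb lay under that level in 11 of 12 libraries. Against each library's own floor of 3 counts, Ldhb lay under it only in WT 2 h replicate 2 and WT 0 h replicate 3, with 2 counts each.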
